A study of Rattus with 6 samples.

Results

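The genes described here are the well-expressed Zfp genes of rat H9C2 cells, a cell line from embryonic heart with myoblast character. They are the protein-coding rows of the read table whose symbol is Zfp followed by a digit and whose reads, summed over 6 libraries, reach at least 1000. This selection gave 147 of 248 protein-coding Zfp rows and of 20742 listed genes. Genes were thus chosen by symbol and by summed reads, with both groups added together. Just inside the limit were Zfp418 (1004 reads) and Zfp617 (1013 reads), and just outside were Zfp799 (980 reads) and Zfp653 (969 reads). There were 3 libraries from cells with a control plasmid and 3 from cells overexpressing RBM25 from a plasmid. RBM25 is an RNA-binding splicing regulator that associates with the U1 snRNP, and the design asked which genes change when it is in excess. No other treatment, time, clone or culture of origin is given in the labels, so p-values reflect library-to-library spread, part or all of which may be technical.

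Zfp stands for zinc finger protein, a numbering of rodent genes that follows a sequence feature and not a shared function. Most such proteins carry tandem C2H2 fingers, each folded around a zinc ion, and bind DNA. Many also carry a KRAB domain, which recruits the co-repressor TRIM28 and, with it, the histone methyltransferase SETDB1 and heterochromatin proteins, and silences transposable elements and imprinted genes. The symbol also covers proteins that are not transcription factors. Zfp36, Zfp36l1 and Zfp36l2 have CCCH fingers, bind AU-rich elements in mRNA and promote its decay. Zfp598 is a ubiquitin ligase that senses collided ribosomes. Zfp207 acts in spindle and kinetochore assembly. The label of transcription factors therefore fits only some of the genes, and fingers were not counted here because protein sequences were not used.

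Libraries held 25543849 to 33130256 counted reads. Rbm25, the overexpressed gene, was at 44.5 to 49.2 CPM (library-scaled read counts) in controls and at 55.9 to 60.1 CPM in RBM25 libraries (0.30 ± 0.047 on the log2 scale, SE; adjusted p = 0.0011 by edgeR). Of the muscle markers, Casq2, Tnnt2, Myod1, Myog and Des had mean control levels of 328, 106, 60.3, 21.4 and 9.23 CPM. Actc1, Myh6, Chrna1 and Myh7 had only 162, 70, 42 and 4 reads in all. Myf5 and Nppa had no row in the read table. The summed level of 9 muscle markers with a row, most of it Casq2, was 518 to 536 CPM in controls and 532 to 590 CPM with RBM25. Endothelial markers summed to at most 0.252 CPM in any library. Of the leukocyte markers, Ptprc and Adgre1 had no row, and Cd68, Cd3e and Cd14 summed to 38.0 to 41.5 CPM in controls and 37.5 to 42.2 CPM with RBM25, most of it Cd14. Of the fibroblast markers, Dcn and Lum had no row and Pdgfra had 5 reads in all. The 4 with a row, mostly type I collagen, summed to 21906 to 24173 CPM in controls and 22097 to 23613 CPM with RBM25. Epithelial markers, nearly all Krt8, summed to 24.9 to 28.5 and 25.6 to 30.2 CPM. In bulk RNA, fewer cells of a type and less RNA per cell cannot be told apart.

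Zfp mRNAs were scarce. On the FPKM scale, which divides reads by gene length and library size, the median of the 147 genes was 2.88 in controls, with quartiles of 1.42 and 5.53. The other 9344 protein-coding genes with at least 1000 reads had a median of 9.98. In all, 126 of the Zfp genes were under 10 FPKM and 8 were over 20. The 147 genes together made up 3149 ± 15.4 CPM of control RNA (SD, n = 3), and the 5 with the most reads supplied 16.8% of that sum.

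**Figure D1:**
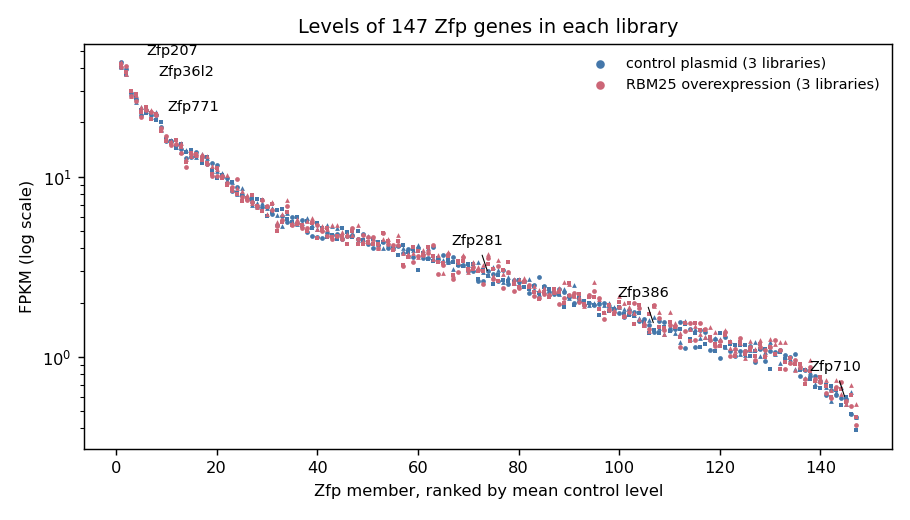
FPKM (log scale) of the 147 Zfp genes in each of 6 libraries, ranked by their mean control level; blue points are control libraries and red points RBM25 libraries. Levels run from a mean of 0.437 to 41.4 FPKM in controls, and at each rank the points of the groups lie close together.

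The most abundant per length was Zfp207, at 43.1, 40.4 and 40.7 FPKM in control replicates 1, 2 and 3 and at 40.6, 42.0 and 43.1 FPKM in RBM25 replicates 1, 2 and 3. These groups overlapped throughout. Zfp36l2 came next, at 37.9 ± 1.30 FPKM in controls and 38.9 ± 2.19 FPKM with RBM25 (SD, n = 3). The means of these genes were 41.4 and 37.9 FPKM, and in controls Zfp207 was above Zfp36l2 in each library. Zfp771 followed at 29.2 ± 0.254 and Zfp330, a nucleolar protein, at 26.7 ± 0.717 FPKM in controls. Zfp513 (23.4 ± 1.21), Zfp91 (23.1 ± 0.426) and Zfp36 (22.0 ± 0.529 FPKM, SD, n = 3) came after them, and the first pair in that order differed by less than its spread. Zfp91 is a ubiquitin ligase of the non-canonical NF-kB pathway. At the low end stood Zfp292 (0.437 ± 0.0404 FPKM), whose implied length of 14998 nt let it reach 1214 reads at a low level.

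With RBM25 overexpression 2 of the 147 genes rose and none fell, at an edgeR adjusted p under 0.05 over all 12882 tested genes; DESeq2 called the same 2, Zfp386 and Zfp281. All 147 passed the filter on low counts. That is 1.36%, against a background of 0.404% of all tested genes, of which 0.357% were called higher and 0.0466% lower. At an unadjusted p under 0.05 there were 17 Zfp genes (11.6%), close to the 11.2% of all tested genes; 12 were higher (6.4% of all tested genes) and 5 lower (4.78% of all tested genes). Changes were small. Fold changes on the log2 scale ran from -0.25 to 0.37, and in Zfp386, Zfp281 and Zfp280c the estimate was more than 20% above controls.

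Zfp386, a Kruppel-like zinc finger gene by its description in the deposited table, had the largest rise. Its level was 13.5, 13.7 and 16.2 CPM in control replicates 1, 2 and 3 and 19.0, 18.8 and 18.5 CPM in RBM25 replicates 1, 2 and 3. The RBM25 libraries lay close together and all above the controls, among which replicate 3 was the highest. On the log2 scale it rose by 0.37 ± 0.075 (SE; adjusted p = 0.0159 by edgeR), or 29.4%. The call was lost without control replicate 1 (0.33, edgeR adjusted p = 0.0984), control replicate 2 (0.33, adjusted p = 0.266) or RBM25 replicate 2 (0.37, adjusted p = 0.0827). It was also lost on FPKM values, where limma gave 0.36 and an adjusted p of 0.348 with a pseudocount of 0.1. That limma fit called 3 of 11196 tested genes in all (0.0268%), and the fit without control replicate 2 called 5 of 13147 (0.038%).

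Zfp281, a C2H2 factor that binds GC-rich promoters and is known for restraining the pluripotency gene Nanog in embryonic stem cells, was the other gene that rose. It was at 25.9, 24.0 and 24.3 CPM in control replicates 1, 2 and 3 and at 30.5, 28.3 and 31.7 CPM in RBM25 replicates 1, 2 and 3. Each RBM25 library was above each control. Its rise was 0.29 ± 0.059 on the log2 scale (SE; adjusted p = 0.0194 by edgeR), or 21.9%. Without control replicate 2 (0.27, edgeR adjusted p = 0.265) or control replicate 3 (0.28, adjusted p = 0.13) the gene did not pass. Nor did it on FPKM values (0.28, limma adjusted p = 0.348 with a pseudocount of 0.1). In that order, these fits called 0.038%, 0.161% and 0.0268% of all tested genes.

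**Figure D2:**
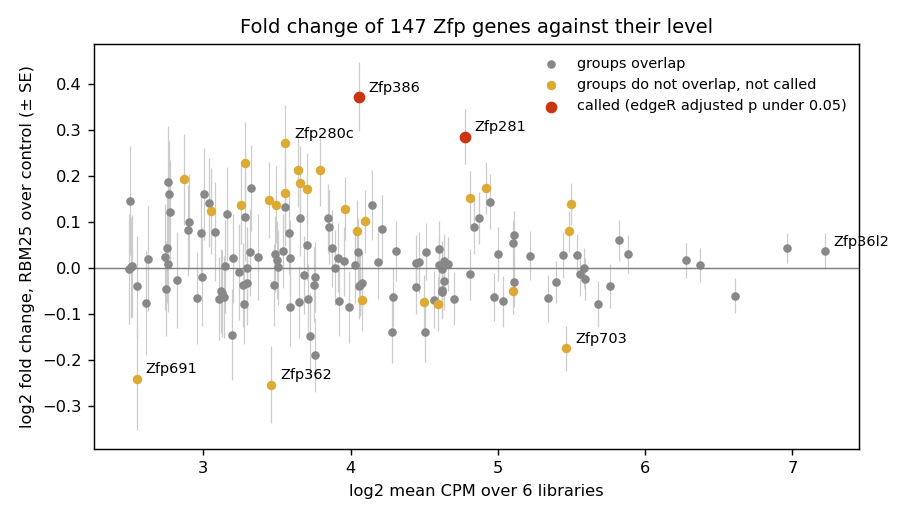
Log2 fold change (RBM25 over control, bars are SE) of the 147 Zfp genes against log2 mean CPM over 6 libraries. Red points are Zfp386 and Zfp281, the 2 called genes; yellow points are genes whose groups do not overlap but which were not called, and most points lie between -0.2 and 0.2.

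Groups did not overlap in 28 of the Zfp genes, 21 of them higher with RBM25 (14.3%) and 7 lower (4.76%). Among all tested genes 8.31% had no overlap and were higher, and 7.94% had none and were lower. Members of the higher set below the threshold included Zfp280c, at 10.6, 10.5 and 10.9 CPM in control replicates 1, 2 and 3 and 12.7, 11.8 and 14.1 CPM in RBM25 replicates 1, 2 and 3. The difference on the log2 scale was 0.27 ± 0.083 (SE; adjusted p = 0.163 by edgeR). Zfp445, a KRAB protein that maintains genomic imprints, was at 12.6, 11.1 and 11.1 CPM in controls and 13.6, 13.0 and 13.7 CPM with RBM25 (0.21 ± 0.079 SE, edgeR adjusted p = 0.284). The gap between its groups was narrow, since control replicate 1 came close to RBM25 replicate 2. Zfp868 (0.23), Zfp105 (0.21), Zfp347 (0.19) and Zfp322a (0.19) completed the 8 largest positive differences without overlap, with edgeR adjusted p from 0.27 to 0.477.

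Among the 7 genes that lay wholly lower with RBM25 and did not pass, Zfp703 had the smallest p. This gene encodes a transcriptional co-repressor of the NET family. It was at 44.4, 47.4 and 48.7 CPM in control replicates 1, 2 and 3 and at 39.6, 41.8 and 43.2 CPM in RBM25 replicates 1, 2 and 3. The difference was -0.17 ± 0.049 on the log2 scale (SE; adjusted p = 0.12 by edgeR), and it passed without RBM25 replicate 3 (-0.20, edgeR adjusted p = 0.0128) and without a filter on low counts (-0.17, edgeR adjusted p = 0.0474). Zfp362 was at 11.1 to 12.8 CPM in controls and 9.70 to 10.3 CPM with RBM25 (-0.25 ± 0.084 SE, edgeR adjusted p = 0.213), and Zfp691 at 5.97 to 6.65 and 5.06 to 5.94 CPM (-0.24 ± 0.11 SE, edgeR adjusted p = 0.412). In Zfp691 only a small gap separated the groups. Zfp444, Zfp574, Zfp516 and Zfp358 had log2 fold changes of -0.078 to -0.050. Zfp516 is known as an activator of the brown fat gene Ucp1.

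**Figure D3:**
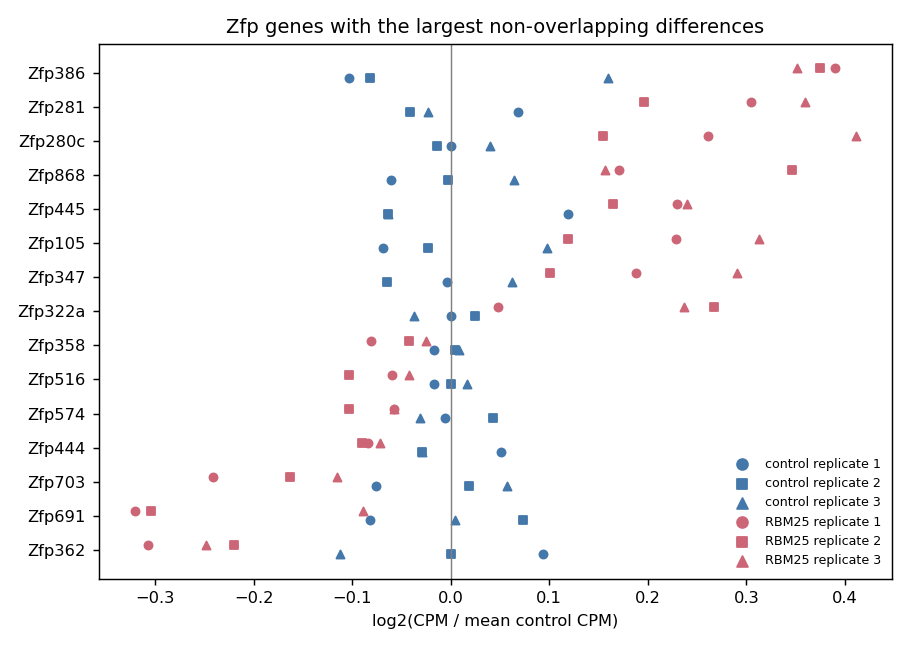
Log2 ratio of each library's CPM to the gene's mean control CPM for the 15 Zfp genes with the largest differences and no overlap between groups (8 higher, 7 lower); shapes are replicate numbers, blue is control and red is RBM25. Zfp386 and Zfp281 have the widest shifts upward, and in Zfp358 and Zfp691 the groups almost touch.

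The CCCH decay factors did not pass the test. Zfp36, or tristetraprolin, was at 42.9, 44.2 and 42.0 CPM in control replicates 1, 2 and 3 and 45.0, 40.9 and 45.9 CPM in RBM25 replicates 1, 2 and 3 (log2 fold change 0.029 ± 0.050 SE, edgeR adjusted p = 0.88). Zfp36l1 had -0.069 ± 0.062 (SE, edgeR adjusted p = 0.737) and Zfp36l2 0.037 ± 0.040 (SE, edgeR adjusted p = 0.781). Groups overlapped in all 3 genes, and none had an unadjusted p under 0.05 by edgeR, DESeq2 or limma.

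Of 10 Zfp genes with a known link to RNA, splicing or ribosomes, none was called by edgeR or DESeq2 and 1 had an unadjusted p under 0.05 by edgeR. Among all tested genes 11.2% had such a p and 0.404% were called, so these counts lie near the background. The gene with that p was Zfp638, a nuclear protein also known as NP220, at 30.1, 27.1 and 30.6 CPM in control replicates 1, 2 and 3 and 30.6, 32.3 and 34.4 CPM in RBM25 replicates 1, 2 and 3. Control replicate 3 and RBM25 replicate 1 met at 30.6 CPM, so the groups overlapped (0.14 ± 0.059 SE, edgeR adjusted p = 0.336). Zfp326, a subunit of the DBIRD complex that couples elongation to splicing, had a log2 difference of 0.050 ± 0.075 (SE; edgeR adjusted p = 0.858). Zfp830, a splicing-associated factor, had 0.037 ± 0.081 (SE, edgeR adjusted p = 0.907). The others were Zfp106, Zfp207, Zfp346, Zfp385a, Zfp598, Zfp622 and Zfp692, with log2 fold changes from -0.040 to 0.031. Zfp622 acts in maturation of the large ribosomal subunit and Zfp346 binds double-stranded RNA. The list's median was 0.012, beside -0.0021 for all tested genes.

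Of 23 genes listed by known role, mostly as DNA-binding or chromatin factors, Zfp281 rose (4.35%, beside 0.357% of all tested genes called higher). The other 22 did not pass. The list includes Zfp91 and Zfp451, given here with ubiquitin and SUMO roles. Fold changes were above 0 in 12 (52.2%, beside 48.8% of all tested genes), with a median of 0.0063 on the log2 scale. At an unadjusted p under 0.05 by edgeR were 4 (17.4%, beside 11.2% of all tested genes), 3 higher and 1 lower. Groups lay apart in 4 genes higher (17.4%, beside 8.31%) and 1 lower (4.35%, beside 7.94%). Some are named here after their values were seen. Zfp131 was at 27.0 to 29.3 CPM in controls and 30.4 to 33.0 CPM with RBM25, without overlap (0.17 ± 0.056 SE, edgeR adjusted p = 0.199). It passed without RBM25 replicate 3 (0.21, edgeR adjusted p = 0.0374). Zfp260, a partner of GATA4 in heart muscle cells, was at 27.4, 27.9 and 29.2 CPM in control replicates 1, 2 and 3 and 28.8, 31.0 and 31.5 CPM in RBM25 replicates 1, 2 and 3 (0.11 ± 0.056 SE, edgeR adjusted p = 0.475), with overlap. Zfp57, which protects imprints with TRIM28, was at 50.5 to 55.8 CPM in controls and 47.7 to 53.4 CPM with RBM25 (-0.077 ± 0.050 SE, edgeR adjusted p = 0.594). Zfp143, an activator of small nuclear RNA and mRNA promoters, had -0.066 ± 0.075 (SE, edgeR adjusted p = 0.794). The remaining 111 Zfp genes, outside the role lists, held Zfp386 as their only called gene and had a median of 0.018.

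As a group the Zfp genes leaned slightly upward. A positive fold change was seen in 89 of 147 (60.5%), against 48.8% of all tested genes, and the median was 0.015 against -0.0021. Among the RBM25 libraries the lean was largest in replicate 3. Set against each gene's control mean, the median log2 deviation of the Zfp genes was -0.00010, 0.0029 and 0.043 in RBM25 replicates 1, 2 and 3. The control replicates 1, 2 and 3 had -0.0048, 0.0021 and 0.0077. Replicates 1 and 2 of the RBM25 group thus lay within the control range. This did not hold for the 78 tested Zfp genes below the read limit, of which 51 (65.4%) were positive. Their medians were 0.087, 0.12 and 0.13 in RBM25 replicates 1, 2 and 3. In control replicates 1, 2 and 3 they were -0.0015, -0.0003 and 0.026. The median SE of these low genes was 0.17. Without RBM25 replicate 3, 77 of the 147 genes (52.4%) were positive, against 49.8% of all tested genes, and the median was 0.0069. Without control replicate 1 or control replicate 2 the number was 79 (53.7%) in each case. The fit without RBM25 replicate 3 called 4 Zfp genes (2.69% of all tested genes were called), 3 higher and 1 lower. The summed level of the 147 genes was 3135, 3146 and 3166 CPM in control replicates 1, 2 and 3 and 3168, 3170 and 3234 CPM in RBM25 replicates 1, 2 and 3. Only replicate 3 stood clear of the controls by more than a few CPM.

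**Figure D4:**
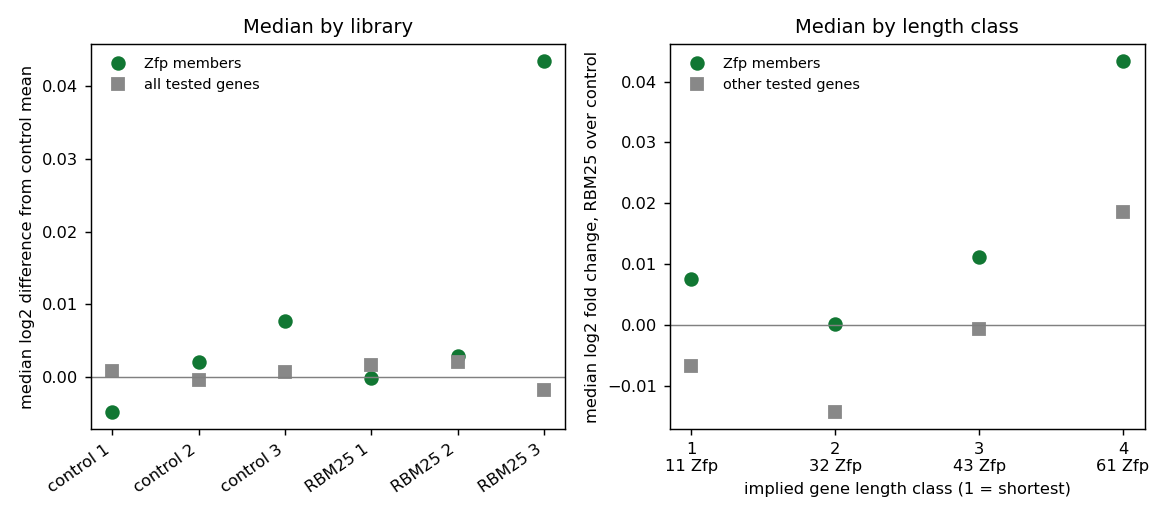
Left, median log2 difference from the control mean in each library for the Zfp genes (green circles) and all tested genes (grey squares); right, median log2 fold change of Zfp genes and of other tested genes in 4 equal classes of implied gene length. RBM25 replicate 3 is the library in which the Zfp median (0.043) leaves the range of the others, and in each class the Zfp median lies above that of the other genes.

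Zfp genes were long. The length implied by reads and FPKM had a median of 5219 nt, against 3640 nt for the other protein-coding genes with at least 1000 reads, and ran from 1193 nt (Zfp580) to 29774 nt (Zfp710). Such values for Zfp710, Zfp827 (24593 nt) and Zfp451 (19945 nt) follow from the authors' gene lengths, whose definition the sources used here do not give. The 3 longest genes had log2 fold changes of -0.033, 0.035 and 0.10, in that order, and the 3 shortest, Zfp580, Zfp511 and Zfp524, had -0.026, -0.051 and 0.0006. None of the 6 passed the test. Zfp451 acts in SUMO conjugation.

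Fold change moved with length among all genes. Tested genes were split by implied length into 4 classes of equal size. The longest class (5976 to 99182 nt) held 61 of the Zfp genes (41.5%), with a median log2 fold change of 0.043, while the other 3160 genes there had 0.018. In the shortest class (66 to 2096 nt) 11 Zfp genes had a median of 0.0076 and the others -0.0068. In the second class the medians were 0.00020 and -0.014, and in the third 0.011 and -0.00070. Across the 147 genes Spearman's rho between fold change and implied length was 0.204, and it was 0.106 across 12882 tested genes; these are correlations across genes that share 6 libraries, given as a description. In RBM25 replicate 3 the longest class had medians of 0.073 for Zfp genes and 0.029 for other genes, and in replicates 1 and 2 the Zfp medians were 0.021 and 0.036. Zfp medians of that class in control replicates 1, 2 and 3 were 0.0017, 0.0016 and 0.0079. With the length trend removed from each library, 82 of the 147 genes (55.8%) were positive, with a median of 0.013, and the same 2 genes were called (Zfp386, 0.35, edgeR adjusted p = 0.0307; Zfp281, 0.27, edgeR adjusted p = 0.0336). The part of length in the remaining lean was not tested.

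Precision was lower for Zfp genes than for most. The median coefficient of variation of CPM between control libraries was 5.21%, against 3.57% for the other protein-coding genes with at least 1000 reads, and 5.22% against 3.86% between RBM25 libraries. The median SE of a log2 fold change was 0.078 for Zfp genes and 0.066 for all tested genes. It was 0.053 for protein-coding genes with at least 1000 reads, Zfp genes included. Among Zfp genes the median SE fell with reads. From the third with the fewest reads to that with the most, it was 0.099, 0.078 and 0.054.

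The genes lie on 21 chromosomes, with 32 on chromosome 1, 13 on chromosome 4 and 12 on chromosome 10. Zinc finger genes often stand in tandem arrays. In the gene order of the RefSeq assembly GRCr8, where all 147 were found (146 by symbol, 1 by synonym), 55 had a directly adjacent protein-coding gene named Zfp, Znf, Zscan, Zkscan or Zbtb. Of these 55, none was called by edgeR or DESeq2, 7 had an unadjusted p under 0.05 by edgeR (12.7%), 32 were positive (58.2%) and the median was 0.0044. Of the other 92, 2 were called (2.17%), 10 had an unadjusted p under 0.05 (10.9%), 57 were positive (62.0%) and the median was 0.018. All tested genes had 0.404% called, 11.2% at an unadjusted p under 0.05 and 48.8% positive. Groups lay apart, higher with RBM25, in 11 of the 55 and in 10 of the 92, beside 8.31% of all tested genes, and the difference between the sets was not tested. On chromosome 1, 15 of 32 Zfp genes were positive (46.9%), beside 43.5% of 1595 other tested genes there. Array members can be near copies, and reads shared between copies make their separate counts uncertain.

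Related families of zinc finger genes, taken by symbol alone, were counted in the same fit. The Zbtb symbols include Zbtb8os, which need not be a zinc finger gene. None of 38 tested Zbtb genes, 8 Zscan genes, 5 Zkscan genes, 5 Znf genes, 13 Klf genes, 8 Prdm genes or 15 Zc3h genes was called by edgeR, beside 0.404% of all tested genes. DESeq2 called 1 of these genes, beside 0.435% of all tested genes. It was Klf6 (0.21 on the log2 scale, DESeq2 adjusted p = 0.0474, edgeR adjusted p = 0.0706). In the order above, the median log2 fold changes of the families were -0.0048, 0.053, -0.016, -0.049, -0.027, 0.045 and 0.019. In the same order, 3, 1, 2, 1, 3, 1 and 2 genes had an unadjusted p under 0.05 by edgeR. Among all tested genes 11.2% had such a p. Zbtb genes, 18 of 38 positive, are the largest of these families. Their difference from the Zfp genes was not tested.

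In a list of KRAB co-repressor genes and other silencing factors, 1 of 27 tested genes rose (3.7%, beside 0.357% of all tested genes). None fell (0.0466% of all tested genes). A positive fold change was seen in 15 (55.6%, beside 48.8% of all tested genes), with a median of 0.011. Trim28, the central co-repressor, was at 330 ± 4.28 CPM in controls and 324 ± 14.4 CPM with RBM25 (SD, n = 3), a log2 difference of -0.023 ± 0.034 (SE; edgeR adjusted p = 0.851). Setdb1 was at 25.7 ± 1.35 and 26.5 ± 0.339 CPM (0.041 ± 0.058 SE, edgeR adjusted p = 0.846). The gene that rose was Mphosph8, a reader of methylated histone H3 in the HUSH silencing complex, from 26.7 ± 0.749 to 31.8 ± 0.898 CPM (SD, n = 3; 0.25 ± 0.054 SE, edgeR adjusted p = 0.0303). It passed in 2 of 6 fits that left out a library. The call was lost without control replicate 1 (0.25, edgeR adjusted p = 0.0953), control replicate 2 (0.23, 0.294), control replicate 3 (0.28, 0.0855) or RBM25 replicate 2 (0.23, 0.21). It was also lost on FPKM values (0.25, limma adjusted p = 0.211 with a pseudocount of 0.1). The fit without control replicate 2 called 0.038% of all tested genes, and the limma fit 0.0268%. The HUSH partners of Mphosph8, Pphln1 (0.091 ± 0.049 SE, edgeR adjusted p = 0.502) and Tasor (0.19 ± 0.18 SE, adjusted p = 0.751), did not pass. Smarcad1, a remodeller that binds TRIM28, was at 31.5 ± 1.22 and 35.5 ± 0.873 CPM (0.17 ± 0.052 SE, edgeR adjusted p = 0.147). At an unadjusted p under 0.05 by edgeR were 5 of the 27 (18.5%, beside 11.2% of all tested genes), 3 higher and 2 lower. The lower ones were Chd4 (-0.087 ± 0.031 SE, edgeR adjusted p = 0.257) and Mbd3 (-0.080 ± 0.032 SE, edgeR adjusted p = 0.325). Groups lay apart in 3 genes higher and 3 lower (11.1% each, beside 8.31% and 7.94% of all tested genes).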

How the data were processed

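Poly(A) RNA of 6 libraries was sequenced as read pairs with a strand-marking kit, per the labels' protocols. The submitters' processing notes name HISAT2, DESeq2 and the build mRatBN7.2; the sources used here do not give the counting program, annotation, strand setting or versions. Deposited counts are raw reads per gene. The deposited FPKM values have 2 decimals. Genes overlapping on opposite strands are uncertain.

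The test was edgeR 4.0.16 (R 4.3.3) on these counts: filterByExpr (minimum count 10), TMM factors (0.996 to 1.01), a robust quasi-likelihood fit on group, and Benjamini-Hochberg adjustment over 12882 genes. SE is the log2 fold change divided by the square root of F. CPM are scaled by TMM factors, except for cell type markers, which are scaled by library totals. Library differences used log2(CPM + 0.1). limma 3.58.1 on log2(FPKM + pseudocount), where fold changes of low genes are understated, and DESeq2 1.42.0 were alternatives.

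Implied length is reads divided by FPKM and by library total, in matching units. Of 9202 genes compared with their RefSeq span, 106 had a ratio of 1.05 to 1.10 and 39 of 0.95 to 1.05, so implied lengths may be too long by a common factor near 1.08; ranks and length classes are not affected.

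The Zfp genes and all lists were chosen with earlier results of these data known, so no list was tested and no p was adjusted over a list alone. A rule chose 40 Zfp genes to name. It took called genes, up to 8 largest differences each way without overlap (8 and 7) and the 6 highest control FPKM. It also took the 3 longest and 3 shortest, the CCCH and RNA-linked lists, and genes at the read limit. Zfp131, Zfp260, Zfp57, Zfp143 and Zfp292 were named outside this rule. The fit was first tested on simulated counts. There it recovered 39 of 67 genes changed 1.2-fold (58.2%), 88.1% of those changed 1.5-fold and 90.9% of those changed 2.0-fold. Of its 173 calls, 15 were false.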

Additional observations from a re-analysis of the deposited data

How the results depend on the processing

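Of 2 Zfp genes called, the count was 2 with DESeq2, with RLE size factors and with length correction, and 3 without a filter on low counts (Zfp703 added, -0.17, edgeR adjusted p = 0.0474). It was 0 on FPKM values with limma at a pseudocount of 0.1, at a pseudocount of 1 and without an FPKM filter. There 14, 14 and 13 Zfp genes had an unadjusted p under 0.05. These FPKM fits called 3, 2 and 6 genes in all (0.0268%, 0.0179% and 0.0294% of tested genes). DESeq2, RLE size factors and length correction called 0.435%, 0.419% and 0.38% of tested genes. The fit without a filter on low counts called 0.988%. Fits that left out a library called 0 to 4. The count was 0 without control replicate 2 (14 at an unadjusted p under 0.05) and 4 without RBM25 replicate 3. It was 1 without control replicate 1, control replicate 3 or RBM25 replicate 2. Without control replicate 2 only 5 of 13147 tested genes were called in all (0.038%). Without control replicates 1 and 3 the shares were 0.403% and 0.161%. Without RBM25 replicates 1, 2 and 3 they were 0.444%, 0.268% and 2.69%. A read limit of 3000 left 1 called of 60 genes, 33 of them positive, and a limit of 300 left 2 of 199, 126 positive. Both limits used the main fit, in which 0.404% of tested genes were called and 48.8% were positive. Positive genes numbered 77 to 90 and the median 0.0069 to 0.029 in the fits without a library. The labels do not say whether libraries with the same replicate number are paired. Correlations of same-numbered deviations were 0.054, -0.067 and -0.0059, and those of differently numbered ones ran from -0.072 to 0.080. With 3 libraries per group these values cannot decide whether a batch was shared. With the replicate block 436 genes were called in all (3.38% of tested genes), beside 52 in the main fit (0.404%). The Zfp genes among them were 4: Zfp386, Zfp281, Zfp280c (0.27, edgeR adjusted p = 0.0304) and Zfp703 (-0.17, edgeR adjusted p = 0.0123). With block and length correction 337 genes were called in all (2.62% of tested genes). Zfp genes among these were 3: Zfp386, Zfp281 and Zfp703 (-0.16, edgeR adjusted p = 0.0265).

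Small values changed sign. With length correction, Zfp106 (-0.018) and Zfp827 (-0.0066) reversed, and with block and length correction Zfp106 (-0.017), Zfp827 (-0.0026) and Zfp418 (0.0036). Zfp418 also did with DESeq2 (0.0008), no filter (0.0005), the replicate block (0.0067) and FPKM (0.0097, 0.0033 and 0.0097); Zfp692 did on FPKM (-0.0018, -0.0007 and -0.0018). Without a library the ranges were -0.012 to 0.026 for Zfp106, -0.0018 to 0.080 for Zfp36, -0.013 to 0.072 for Zfp36l2, -0.040 to 0.020 for Zfp385a, -0.11 to 0.092 for Zfp418, -0.080 to 0.0050 for Zfp513, -0.035 to 0.069 for Zfp524, -0.11 to 0.059 for Zfp580, -0.034 to 0.049 for Zfp617, -0.070 to 0.10 for Zfp692, -0.071 to 0.0018 for Zfp710, -0.017 to 0.095 for Zfp827 and -0.012 to 0.070 for Zfp830. Causes were not tested. The other 27 genes named by the rule kept their direction in every alternative run. Limiting the genes to those with C2H2 fingers in their protein was planned and not run, because protein sequences were not used here. The alternatives for Mphosph8 were chosen after seeing the data.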
